A study of Mus musculus with 6 samples.

Results

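The small proline-rich proteins (Sprr) of enteric glial cells (EGCs) were described here over 9 genes, Sprr1a, Sprr1b, Sprr2d, Sprr2e, Sprr2f, Sprr2g, Sprr2h, Sprr2k and Sprr3. They were taken by gene symbol from the 17 Sprr genes in the count files, which list 46603 gene IDs in all. The 9 genes had been picked with the difference between the groups known, so their levels and fold changes are given as a description. No p-value is given for them, and their calls are counted only beside the share of all genes called. EGCs, the glia of the gut wall, had been grown from neurospheres, floating clusters of neural progenitors, prepared from the gut of embryos at E14.5 of the mouse strain C57BL/6J. The control group was 3 untreated cultures (treatment NIL), and the LPS group was 3 cultures given lipopolysaccharide, a component of bacterial outer membranes, at 100 ng/ml for 12 h. Both groups shared the strain, the embryonic origin and the culture steps, and neither carried a transgene. Libraries are named by group and replicate number, as in control 1 or LPS 3. Nothing in the labels said whether the cultures of a group came from separate embryos or litters, so p-values measure the spread between these cultures, which may be technical.

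Sprr proteins are precursors of the cornified envelope, the cross-linked protein shell under the membrane of keratinised epithelial cells. Transglutaminases join them to loricrin, involucrin and other precursors through their glutamine and lysine residues, and cysteines add further bonds. The genes lie side by side in the epidermal differentiation complex, a block of genes for epidermal proteins. They are best known from skin, oesophagus and other stressed epithelia. Sprr1a is also known as a gene that injured neurons switch on during axon regrowth, and Sprr2a as a protein that gut epithelium makes in response to bacteria.

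The libraries held between 18775316 and 23664312 counts, so that 3 counts, taken as the floor for a single library, equalled 0.124 to 0.167 CPM (counts per library size, scaled here with TMM factors). Replicate 3 of both groups stood apart. The summed level of 12 macrophage markers was 4000, 5167 and 12190 CPM in control 1, 2 and 3, and 4106, 5337 and 19990 CPM in LPS 1, 2 and 3. Sox10, the factor that marks enteric glia, had mean levels of 88.0 ± 13.5 CPM (SD, n = 3) without and 77.0 ± 1.16 CPM with LPS. This glial transcript was thus present in both groups, next to transcripts of other cell types.

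All 17 Sprr genes of the files lie on chromosome 3 within 284.7 kb (GRCm38, chr3:92215799-92500493). The 13 genes of the Sprr2 group come first, on the plus strand, and Sprr1b, Sprr3, Sprr1a and Sprr4 follow on the minus strand. Sprr2d spans chr3:92339140-92340873 and Sprr2e chr3:92352143-92353449. Sprr2k spans chr3:92432582-92433925, Sprr3 chr3:92456502-92458720 and Sprr1a chr3:92483952-92485895. The remaining members are Sprr2f (chr3:92365187-92366442), Sprr2g (chr3:92373915-92375229), Sprr2h (chr3:92385685-92387324) and Sprr1b (chr3:92436809-92438789).

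Because counts of related genes can be mixed up, the sequences of Sprr2e, Sprr2d, Sprr2b and Sprr2k, all of the Sprr2 group, are shown first. The coding sequences below, from GENCODE annotation of GRCm38, are spliced and run 5′ to 3′ on the plus strand. Capitals mark bases that differ from Sprr2e in a pairwise alignment, including inserted bases. Sprr2d and Sprr2e had the most counts among the Sprr genes found almost only in LPS cultures, Sprr2b is their neighbour outside the 9 genes, and Sprr2k is the Sprr2 gene that was lower in LPS.
Sprr2e: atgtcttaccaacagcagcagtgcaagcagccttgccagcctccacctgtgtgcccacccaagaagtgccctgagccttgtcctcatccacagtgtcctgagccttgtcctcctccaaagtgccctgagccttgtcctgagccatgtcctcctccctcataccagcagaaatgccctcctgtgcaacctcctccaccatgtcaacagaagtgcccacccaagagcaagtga
Sprr2d: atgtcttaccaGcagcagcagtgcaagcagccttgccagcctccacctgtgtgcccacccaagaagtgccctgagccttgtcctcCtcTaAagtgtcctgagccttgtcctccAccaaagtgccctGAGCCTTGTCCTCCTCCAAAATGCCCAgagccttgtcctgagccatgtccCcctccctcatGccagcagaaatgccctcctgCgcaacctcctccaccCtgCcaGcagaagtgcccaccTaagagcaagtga
Sprr2b: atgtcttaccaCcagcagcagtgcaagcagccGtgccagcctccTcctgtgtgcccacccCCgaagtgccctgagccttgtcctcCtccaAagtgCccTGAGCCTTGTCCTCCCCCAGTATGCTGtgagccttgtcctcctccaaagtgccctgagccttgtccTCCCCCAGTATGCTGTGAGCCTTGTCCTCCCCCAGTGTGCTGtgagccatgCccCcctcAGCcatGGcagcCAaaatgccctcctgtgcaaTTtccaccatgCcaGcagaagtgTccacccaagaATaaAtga
Sprr2k: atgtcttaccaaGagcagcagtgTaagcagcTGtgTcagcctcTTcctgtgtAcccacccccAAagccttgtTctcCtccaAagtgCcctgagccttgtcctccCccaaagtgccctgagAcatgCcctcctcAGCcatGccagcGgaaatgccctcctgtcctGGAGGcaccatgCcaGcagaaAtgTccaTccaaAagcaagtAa
The coding sequences of Sprr2e and Sprr2d, 231 and 258 bases long, were identical at 84.9% of aligned positions. Sprr2e and Sprr2b matched at 67.7%, and Sprr2e and Sprr2k at 74.6%. Of the 76 codons of Sprr2e 39.5% code for proline, 15.8% for glutamine and 10.5% for lysine. Sprr3, with 238 codons the longest member, has 20.6% proline codons, and Sprr1a, with 144 codons, has 31.9%.

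Stretches of 50 bases were used to see how far the copies could be told apart. In Sprr2e 10.2% of such stretches also occur in another gene, mostly in Sprr2i, and in Sprr2d 4.27%. In Sprr2b the share is 14.1%, all of it with Sprr2a1, Sprr2a2 and Sprr2a3. Sprr2g, Sprr2h, Sprr2k, Sprr1a, Sprr1b and Sprr3 share none. Sprr2a1 and Sprr2a2 share 96.3% and 96.5% with other genes, so their counts of 0 in every library cannot be read as a lack of transcript. How reads with several alignments were counted was not given in the sources used here.

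Sprr2e, Sprr2d and, at a low level, Sprr2g and Sprr2h were higher in every LPS library than in any control library, whereas Sprr3, Sprr2k and Sprr1a were lower in every LPS library. Of the 9 genes 6 passed the filter on low counts. By edgeR's quasi-likelihood test over 15226 genes, 3 of these 6 passed as higher (Sprr2d, Sprr2e, Sprr2g) and 3 as lower (Sprr1a, Sprr2k, Sprr3), beside 9.09% of all tested genes called higher and 6.71% called lower. All 6 had groups that did not overlap, beside 19.3% of tested genes with all LPS libraries above and 19.4% with all LPS libraries below the control libraries. As the genes had been picked on this contrast, nothing is read from these counts. They also rested on few libraries. All 6 calls were lost without control 1, without control 2 and without LPS 2. Leaving out LPS 1 kept the call of Sprr1a alone, leaving out LPS 3 those of Sprr2d, Sprr2e and Sprr1a, and leaving out control 3 those of Sprr2e, Sprr1a, Sprr2k and Sprr3. Without replicate 3 of both groups, a choice made after seeing the data, Sprr2d and Sprr2e were called higher and Sprr1a, Sprr2k and Sprr3 lower.

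**Figure D1:**
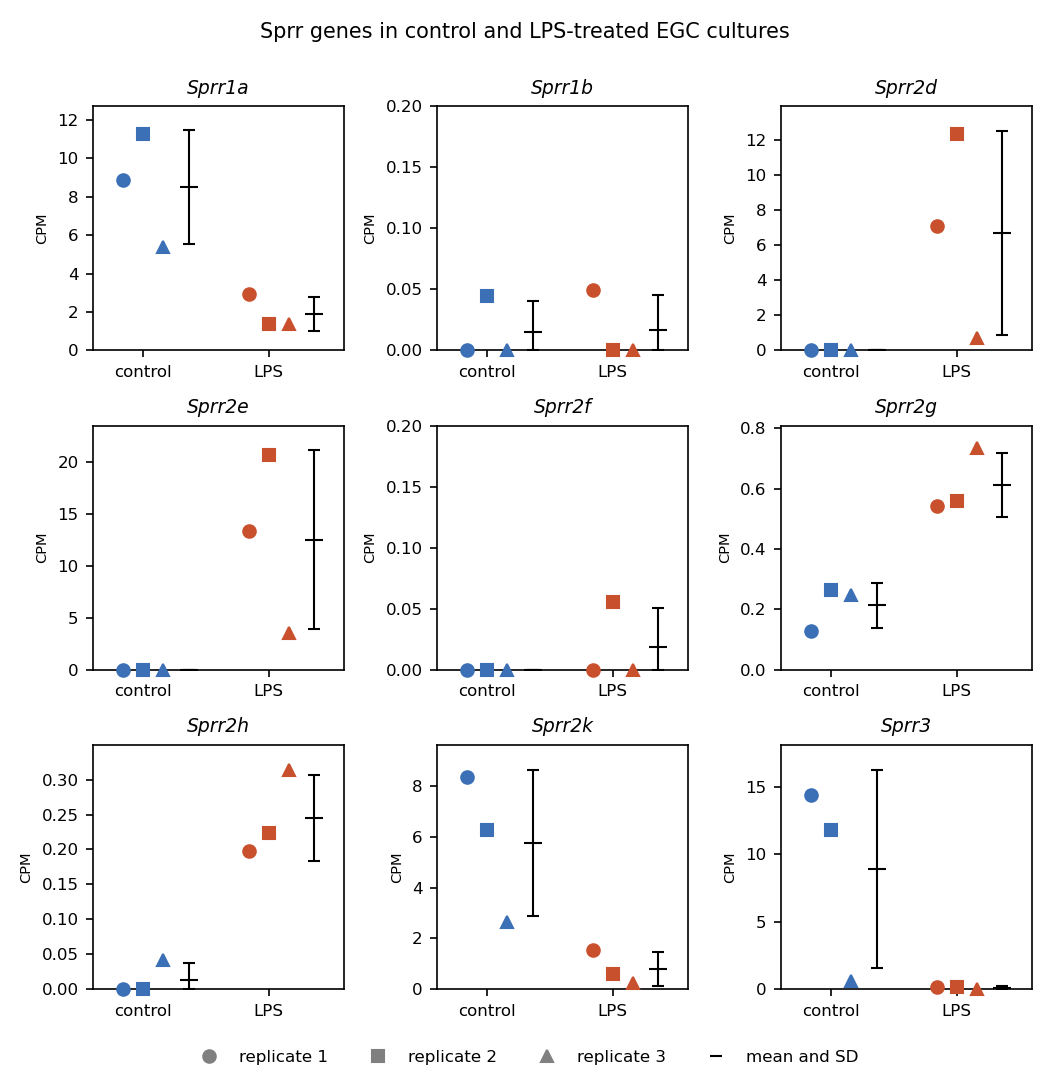
CPM (TMM-scaled) of each of the 9 Sprr genes in the 3 control and 3 LPS cultures. Points are libraries, with the shape giving the replicate number, and the black mark and bar give the mean and SD (n = 3, cut at 0). Each panel has its own axis from 0. Sprr2d and Sprr2e rise from the baseline in LPS cultures, with replicate 3 the lowest, and Sprr1a, Sprr2k and Sprr3 sit higher in control cultures.

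Sprr2e, one of the envelope precursors of the Sprr2 group, had 0 counts in all 3 control libraries and 270, 370 and 67 counts in LPS replicates 1, 2 and 3. The LPS level was 12.5 ± 8.59 CPM (SD, n = 3), at least 97.6-fold higher than the mean of the floors of the control libraries. Even the lowest LPS library, replicate 3, was at least 28.3-fold above the floor of control replicate 3. The LPS libraries themselves spanned 5.88-fold.

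Sprr2d, its next neighbour upstream, had 1, 0 and 0 counts in control and 143, 221 and 14 counts in LPS libraries. The summed ratio of LPS to control was 464, with a 95% exact counting interval of 82.9 to 18400 that covers counting error only. It rests on 1 control count and is not ranked against the lower bound of Sprr2e. LPS replicate 3 was again the lowest, 16.8-fold below LPS replicate 2.

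Sprr2g, also of the Sprr2 group, was much rarer, with 3, 6 and 6 counts in control and 11, 10 and 14 in LPS libraries. The annotation lists it as a polymorphic pseudogene and not as a protein-coding gene. Its annotated coding length of 232 bases is not a whole number of codons. The highest control library was at 0.266 CPM and the lowest LPS library at 0.544 CPM, with a log2 fold change of 1.49 ± 0.37 (SE). Unlike Sprr2d and Sprr2e it was not low in LPS replicate 3, which was 1.33 times the mean of LPS replicates 1 and 2. Its call was lost in each of the 6 fits that left out a single library and with upper-quartile scaling, library size alone, DESeq2, limma-voom or no filter on low counts.

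Sprr2h did not pass the filter. It had 0, 0 and 1 counts in control and 4, 4 and 6 in LPS libraries, a summed ratio of 17.2 with a 95% exact counting interval of 2.62 to 727. Sprr2f had 1 count in LPS replicate 2 and 0 in the other libraries. Sprr1b had 1 count in control replicate 2 and 1 in LPS replicate 1. Both were at or under the floor in every library, so no fold is given, and a difference was not detectable at this depth.

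Sprr3, an Sprr protein best known from oesophagus and other wet stratified epithelia, had 340, 267 and 14 counts in control and 4, 3 and 0 in LPS libraries. Control replicate 3 lay far under the other controls, at 0.579 CPM against 14.4 and 11.8 CPM, yet still above every LPS library. The log2 fold change was -6.13 ± 1.46 (SE). The ratio of control to LPS was 72.9 for replicate 1 and 70.7 for replicate 2, which rest on 4 and 3 LPS counts and have 95% exact counting intervals of 28.2 to 268.9 and 23.9 to 344.9. For replicate 3, with 0 LPS counts and a floor of 3 counts, control was at least 3.69-fold higher.

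Sprr2k had 197, 142 and 64 counts in control and 31, 11 and 5 in LPS libraries. Its mean level was 5.76 ± 2.89 CPM in control and 0.802 ± 0.656 CPM in LPS cultures, and the log2 fold change was -2.82 ± 0.71 (SE). Here too replicate 3 was the lowest of each group. Sprr2k was thus lower in LPS cultures although Sprr2d and Sprr2e of the same group were higher.

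Sprr1a, the member known from injured neurons, had 209, 255 and 130 counts in control and 59, 25 and 26 in LPS libraries. Its mean level was 8.51 ± 2.97 CPM in control and 1.89 ± 0.888 CPM in LPS cultures, with a log2 fold change of -2.16 ± 0.43 (SE). It had the smallest spread of the 3 members that were lower in LPS, with 2.10-fold between the highest and the lowest control library.

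The 8 Sprr genes outside the list were read the same way. Sprr2b, which precedes Sprr2d in the cluster, had 130, 151 and 48 counts in control and 633, 832 and 120 in LPS libraries. LPS 3 lay under control 1 in counts and under control 2 in CPM, so the groups overlapped. The log2 fold change of Sprr2b was 2.57 ± 0.80 (SE), with an adjusted p of 0.0852 by edgeR's quasi-likelihood test over all genes, which missed the threshold of 0.05. With the replicate number as a block the log2 fold change was 2.39 ± 0.24 and the adjusted p 0.00507, and without LPS replicate 3 the values were 3.04 ± 0.50 and 0.0144. Sprr2a3 had 7, 2 and 1 counts in control and 0 in every LPS library, and Sprr2i had 1, 1 and 0 counts in LPS libraries only. Sprr2c-ps and Sprr2j-ps had 1 count each, and Sprr2a1, Sprr2a2 and Sprr4 were at 0 throughout.

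**Figure D2:**
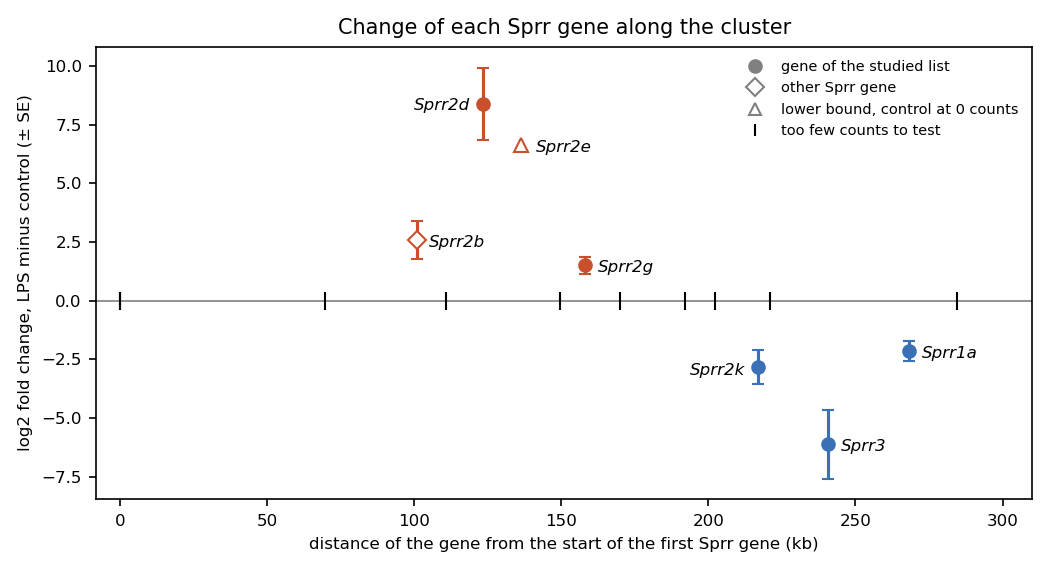
Log2 fold change of LPS over control (± SE, edgeR, 3 libraries a group) for the 7 tested Sprr genes against their distance along the cluster. The open triangle gives the lower bound of Sprr2e (6.61 on the log2 scale), whose control libraries are at 0, and ticks on the zero line are Sprr genes with too few counts. The genes with positive values, Sprr2b to Sprr2g, lie before those with negative values, Sprr2k to Sprr1a.

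The order along the chromosome split the changes. Sprr2b, Sprr2d, Sprr2e and Sprr2g, with positive fold changes, are the tested genes of the first part of the cluster, and Sprr2k, Sprr3 and Sprr1a, with negative fold changes, are the last tested genes. From the start of Sprr2e to that of Sprr2k is 80.5 kb. Between them lie Sprr2f, Sprr2g, Sprr2h, Sprr2i and Sprr2j-ps, with few counts. Sprr2a3, which had counts in control libraries only, is an exception at the first end. The split was seen after the values were known and was not tested.

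The libraries were also set side by side within each replicate number. For the 6 tested members, picked on this contrast and with groups that do not overlap, the direction within pairs is fixed beforehand and nothing is read from it. The labels do not state a pairing. Libraries of the same number deviated together from their group means, with r of 0.513, 0.334 and 0.613 for replicates 1, 2 and 3. This set only replicate 3 apart, as control 1 and LPS 2 correlated at 0.419 and control 2 and LPS 1 at 0.323. The pairs of replicates 1 and 2 thus rest on the numbers alone. Sprr1a was 3.04-fold, 8.11-fold and 3.95-fold higher in control than in LPS libraries for replicates 1, 2 and 3. Sprr2k was 5.45-fold, 10.3-fold and 10.1-fold higher in control. Sprr2b, whose groups overlap, was 5.68-fold, 6.94-fold and 3.17-fold higher in LPS. Sprr2g had a ratio of LPS to control of 4.28 in the pair of replicate 1, which rests on 3 control counts and has a 95% exact counting interval of 1.13 to 23.9. In the pairs of replicates 2 and 3 it was 2.10 (0.69 to 7.03) and 2.96 (1.07 to 9.38). With the block, the log2 fold changes of the members were close to those without it, for example -2.93 ± 0.27 (SE) for Sprr2k and -6.14 ± 0.27 for Sprr3.

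**Figure D3:**
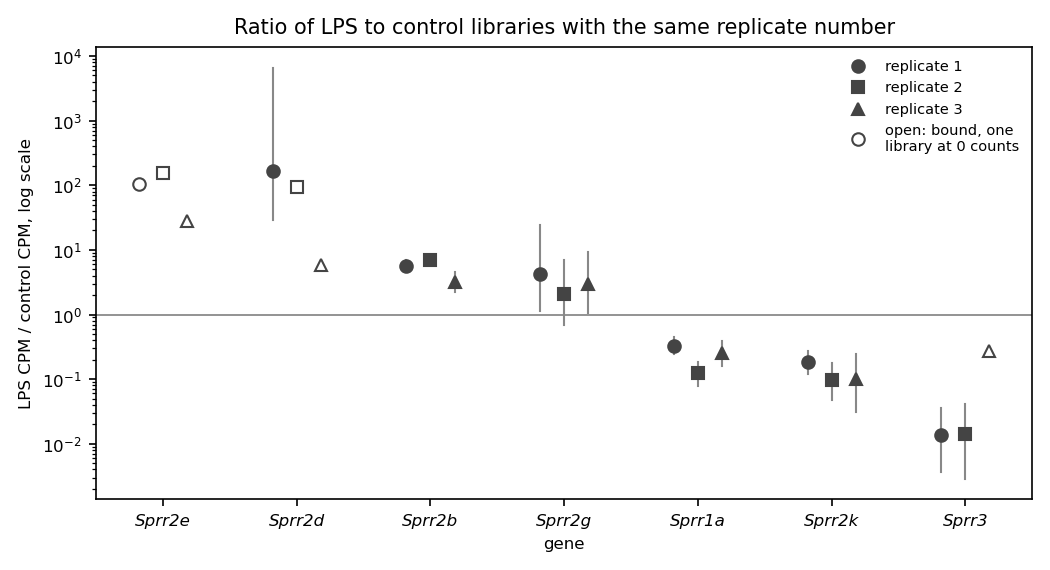
Ratio of LPS to control CPM for libraries with the same replicate number, on a log scale, for the 7 tested Sprr genes. Filled symbols are ratios, vertical lines are their 95% exact counting intervals (hidden where smaller than the symbol), and open symbols are bounds where 1 library of the pair had 0 counts (floor of 3 counts), lower bounds for Sprr2e and Sprr2d and an upper bound for replicate 3 of Sprr3. Symbols above the line at 1 are higher in LPS.

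Levels were then compared between genes as CPM per kb of exon. In control cultures Sprr1a was highest at 10.6 ± 3.69 CPM per kb (SD, n = 3), followed by Sprr2k at 9.04 ± 4.53, Sprr3 at 7.31 ± 6.02 and, outside the list, Sprr2b at 6.03 ± 3.12. These neighbours did not differ beyond their spread, and their order changed from library to library: Sprr2k was highest in control 1 and Sprr1a in control 2 and control 3. Sprr2g followed far below at 0.328 ± 0.116, and Sprr2d, Sprr2h and Sprr1b were at 0.0207, 0.0183 and 0.0178 CPM per kb. In LPS cultures the order was Sprr2b at 35.7 ± 25.8, Sprr2e at 19.3 ± 13.3, Sprr2d at 9.85 ± 8.52, Sprr1a at 2.34 ± 1.10, Sprr2k at 1.26 ± 1.03 and Sprr2g at 0.939 ± 0.162 CPM per kb. The group means of the first 3 were within their spread, but in each LPS library Sprr2b was above Sprr2e and Sprr2e above Sprr2d. The rest of the order did not hold in LPS 3, where Sprr1a at 1.69 and Sprr2g at 1.13 CPM per kb were above Sprr2d at 1.08, and Sprr2k was at 0.411. Among all tested genes, the mean CPM in LPS cultures lay at percentile 55.6 for Sprr2b and 39.2 for Sprr2e, the highest of the members there. In control cultures the highest members by mean CPM were Sprr3 at percentile 33.3 and Sprr1a at 32.6. This did not hold in control 3, where Sprr3 at 0.579 CPM was under Sprr1a at 5.37 CPM and Sprr2k at 2.645 CPM.

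The sum over the 9 genes did not show these differences. It was 31.8, 29.7 and 8.89 CPM in control and 25.9, 35.9 and 6.91 CPM in LPS libraries, or 23.5 ± 12.7 and 22.9 ± 14.7 CPM on average (SD, n = 3). Within pairs of the same number it was lower in LPS for replicates 1 and 3 and higher for replicate 2. Over all 17 Sprr genes the sum was 37.6, 36.5 and 10.9 CPM in control and 57.2, 82.4 and 13.2 CPM in LPS libraries. On average it was 28.3 ± 15.1 and 50.9 ± 35.04 CPM. The sum over 17 genes does not depend on which Sprr copy a read was given to. It would still change if reads with several alignments were left out or counted more than once, which is not known. This sum was higher in LPS in all 3 pairs, while across pairs the groups overlapped in both sums.

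The make-up of the Sprr counts changed in each library, replicate 3 included. Sprr1a, Sprr2k and Sprr3 together held 84.0%, 80.6% and 78.8% of all Sprr counts in control replicates 1, 2 and 3. In LPS libraries the same genes held 8.12%, 2.64% and 12.3%. The lowest control share, of replicate 3, had a 95% exact binomial interval of 73.4 to 83.6%, and the highest LPS share, also of replicate 3, one of 8.51 to 17%, which cover counting error only. Sprr2b, Sprr2d and Sprr2e together held 14.8%, 18.3% and 18.2% in control, nearly all of it Sprr2b, and 90.4%, 96.2% and 79.8% in LPS libraries. These sets of genes were formed after their values had been seen, so the shares are a description.

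**Figure D4:**
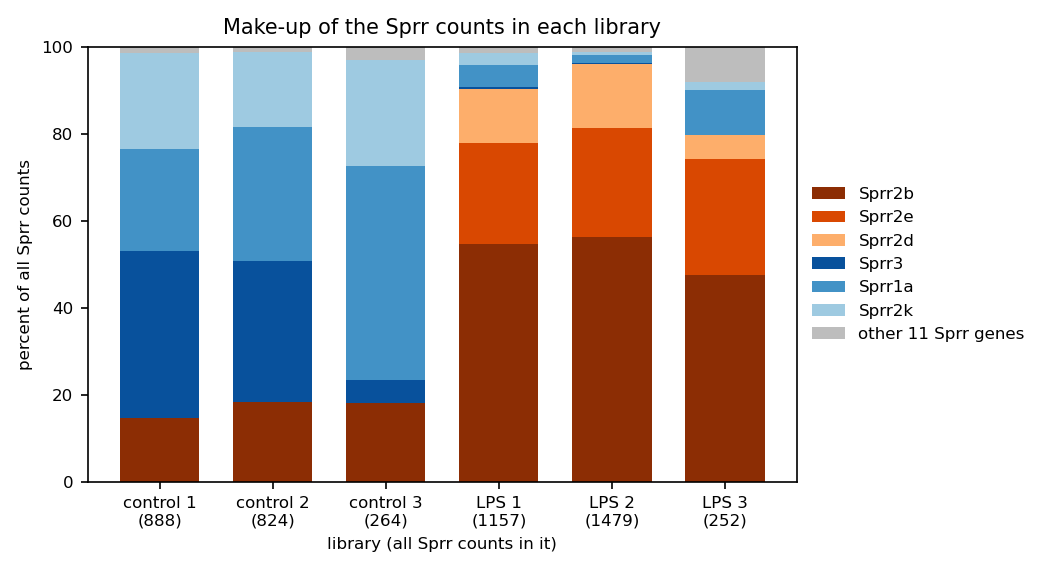
Percent of all counts for the 17 Sprr genes that went to each gene, per library, with the number of Sprr counts under each bar. Blue shades (Sprr3, Sprr1a, Sprr2k) fill most of the control bars and orange to brown shades (Sprr2b, Sprr2e, Sprr2d) most of the LPS bars. Grey is the other 11 genes.

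Within the control group Sprr3 set replicate 3 apart. It held 38.3% and 32.4% of the Sprr counts in control replicates 1 and 2 but 5.30% in control replicate 3, where Sprr1a held 49.2%. Relative to the mean of replicates 1 and 2, control replicate 3 stood at 0.533 for Sprr1a, 0.361 for Sprr2k and 0.0441 for Sprr3. LPS replicate 3 stood at 0.632 for Sprr1a, 0.244 for Sprr2k, 0.207 for Sprr2e and 0.0756 for Sprr2d. Sprr2g did not share this, with 1.26 in control and 1.33 in LPS.

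Markers of other cells moved with these differences. Their calls stand beside 9.09% of all tested genes called higher and 6.71% called lower. The macrophage markers were high in replicate 3 of both groups, where most Sprr genes were low, and their part in the result was not tested. Of 12 tested, Adgre1, which encodes the macrophage receptor F4/80, rose (log2 fold change 2.78 ± 0.68, adjusted p = 0.0452, edgeR), and the other 11 were not called. Their fold changes went both ways, from -3.08 ± 1.22 for Mrc1, the mannose receptor (adjusted p = 0.145), whose LPS libraries all lay below the control libraries, and -0.83 ± 0.57 for Cd68 (adjusted p = 0.373) to 3.16 ± 1.09 for Aif1 (adjusted p = 0.107). The 7 smooth muscle markers all fell, among them Acta2, smooth muscle actin (-1.93 ± 0.29, adjusted p = 0.0117), and Des, desmin (-1.85 ± 0.20, adjusted p = 0.0044), and their summed level went from 2290 to 2523 CPM in control to 640.3 to 910.9 CPM in LPS libraries. Of 7 tested mesothelial markers 3 fell, including Upk1b (-1.89 ± 0.21, adjusted p = 0.00445), and the summed level was 87.0 to 130.2 CPM in control and 40.3 to 66.9 CPM in LPS libraries. In bulk RNA, fewer cells of a type and less RNA per cell cannot be told apart, and the part of these cells in the lower Sprr1a, Sprr2k and Sprr3 was not tested. Of 9 glial markers S100b, a calcium-binding protein of glia, fell (-1.91 ± 0.37, adjusted p = 0.0238), as did the cadherin Cdh19, and Fabp7 rose. The calls of Adgre1, S100b and Cdh19 were each lost on leaving out control 1, control 2, LPS 1 or LPS 2, with 1 glial marker called lower without LPS 3, and that of Fabp7 on leaving out control 1, control 2 or LPS 2. The number of smooth muscle markers called lower was 4 without control 2. The number of mesothelial markers called lower was 1 on leaving out control 2, LPS 1 or LPS 2, 2 on leaving out control 1 or control 3, and 6 without LPS 3. The replicate block gave 5 macrophage markers called higher and 3 lower and 7 mesothelial markers called lower.

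Markers of keratinised epithelium, where Sprr proteins are best known, were nearly absent. The 7 squamous markers summed to 2.04 to 2.93 CPM in control and 2.04 to 2.84 CPM in LPS libraries, most of it Krt10. Krt4 had 0 counts in every library, Krt5 had 1 count in control replicate 1 alone, and Trp63, the factor of stratified epithelia, had 2 counts in LPS replicate 2 alone. Krt13 had 7, 4 and 20 counts in control and 0, 2 and 1 in LPS libraries. The 11 general epithelial markers summed to 5.27 to 12.2 CPM in control and 6.12 to 7.19 CPM in LPS libraries, and Epcam had 1 to 7 counts in each library. Endothelial markers, 3 tested, summed to 10.9 to 17.7 CPM in control and 8.06 to 20.7 CPM in LPS libraries, and the 7 mesenchymal markers to 15170 to 15720 and 14790 to 15350 CPM, with Pdgfra and Dcn called higher unless control 1, control 2, LPS 1 or LPS 2 was left out.

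**Figure D5:**
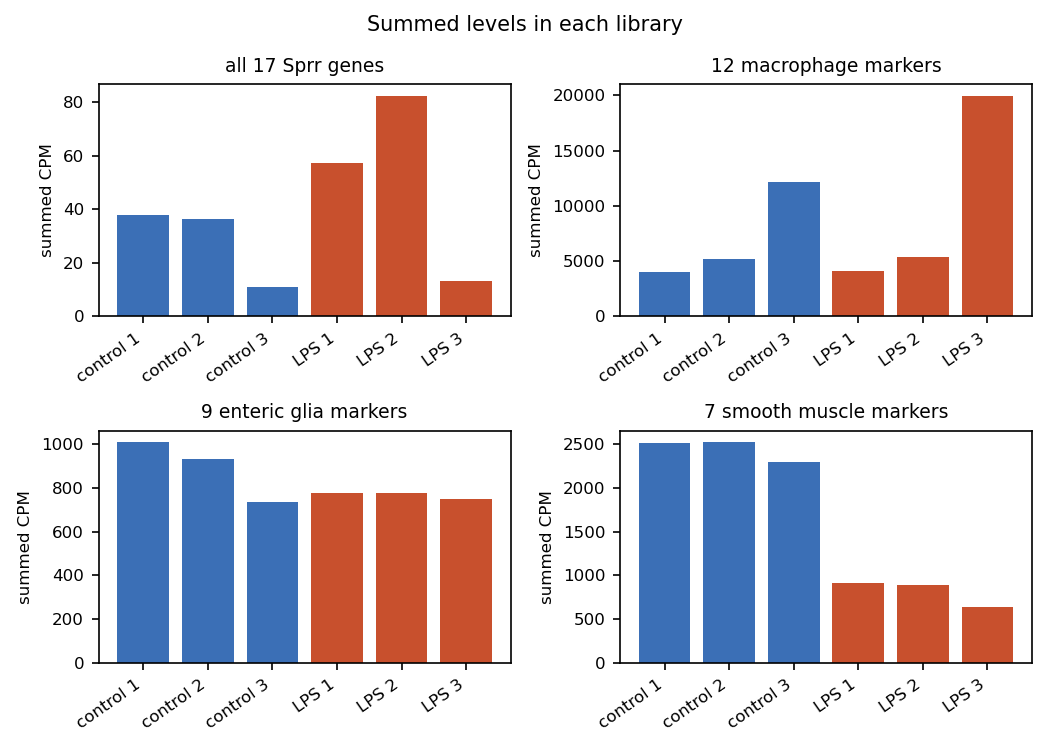
Summed CPM per library for the 17 Sprr genes and for markers of macrophages, enteric glia and smooth muscle (bars from 0, blue control, orange LPS). Replicate 3 of each group has the lowest Sprr sum and the highest macrophage marker sum, and smooth muscle markers are lower in all LPS libraries.

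The other genes of the epidermal differentiation complex were mostly silent. Of 50 outside the Sprr family 21 had 0 counts in every library and 15 could be tested. Of these 15, 2 were higher and 3 lower, beside 9.09% of all tested genes called higher and 6.71% called lower. The median log2 fold change was -0.43 against -0.02 over all tested genes. The median was 0.20 when no filter was set, -0.16 without control 2 and -0.0060 without control 1. Pglyrp3, a peptidoglycan recognition protein that binds bacterial cell walls, had 0, 1 and 0 counts in control and 260, 317 and 22 in LPS libraries (adjusted p = 0.0178, edgeR), with LPS 3 the lowest LPS library as for Sprr2d. S100a8, a calcium-binding protein of inflamed tissue, had 3, 3 and 20 counts in control and 302, 243 and 77 in LPS libraries (adjusted p = 0.0205). S100a1, S100a4 and S100a16 fell, S100a4 by 0.98 ± 0.22 on the log2 scale. Involucrin (Ivl), an envelope precursor, had a mean level of 4.51 ± 0.705 CPM without and 7.65 ± 3.05 CPM with LPS (adjusted p = 0.164), and Lor, which encodes loricrin, had 21, 14 and 8 counts in control and 8, 7 and 4 in LPS libraries. All of these calls were lost on leaving out control 1, control 2, LPS 1 or LPS 2, and in the fit with the replicate block 7 passed as lower.

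Of 11 tested genes for other envelope proteins and their cross-linking, 4 rose and 2 fell. Over all tested genes 9.09% were called higher and 6.71% lower. The median log2 fold change of the list was 0.15. It was -0.30 with no filter, -0.21 without LPS 1, -0.10 without control 3 and 0.05 without LPS 2. Tgm1, the membrane-bound transglutaminase of keratinocytes, rose by 1.96 ± 0.33 on the log2 scale (adjusted p = 0.0163, edgeR), from 0.678 ± 0.238 to 2.67 ± 0.544 CPM. Tgm2, the widespread tissue transglutaminase, was far more abundant at 100.1 ± 27.2 and 118.8 ± 35.2 CPM (adjusted p = 0.589). Serpinb2, a protease inhibitor also found in envelopes, had 3, 2 and 23 counts in control and 959, 971 and 1475 in LPS libraries, and unlike Sprr2d and Sprr2e was not low in LPS replicate 3. Slpi, a secreted protease inhibitor, rose from 3, 1 and 7 counts to 176, 255 and 112 (adjusted p = 0.00407), and Stfa3, a cystatin-type inhibitor, went from 0 counts in all controls to 16, 15 and 36. Scel, which encodes the envelope precursor sciellin, fell from 45, 29 and 34 counts to 2, 3 and 3 counts, which are at or under the floor (adjusted p = 0.00345), and Jup, plakoglobin of cell junctions, fell by 1.04 ± 0.16 (adjusted p = 0.0138). Anxa1 was the most abundant of the list, at 846.1 ± 141.4 and 941.1 ± 337.9 CPM (adjusted p = 0.775). On leaving out control 1, control 2 or LPS 1 the numbers were 2 higher and 1 lower, and without LPS 2 they were 3 and 1.

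The stretch before the start of each gene was read for motifs of factors known from Sprr promoters or from the response to LPS. RefSeq promoters (GRCm38.p6) were at hand for 8 of the 9 members and for 14 Sprr genes in all. The 250 bases upstream of the start are shown for Sprr2d and Sprr2e, which were both higher in LPS, and for Sprr2k and Sprr1a, which were lower in LPS, 5′ to 3′ on the strand of the gene, with matches to the AP-1 motif TGANTCA in capitals. Sprr2d is chr3:92338890-92339139 (plus strand), Sprr2e chr3:92351893-92352142 (plus), Sprr2k chr3:92432332-92432581 (plus) and Sprr1a chr3:92485882-92486131 (minus).
Sprr2d: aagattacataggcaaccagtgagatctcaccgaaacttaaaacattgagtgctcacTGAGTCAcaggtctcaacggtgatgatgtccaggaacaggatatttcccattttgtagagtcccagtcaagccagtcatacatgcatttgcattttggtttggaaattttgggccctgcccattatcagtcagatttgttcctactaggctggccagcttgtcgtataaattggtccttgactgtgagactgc
Sprr2e: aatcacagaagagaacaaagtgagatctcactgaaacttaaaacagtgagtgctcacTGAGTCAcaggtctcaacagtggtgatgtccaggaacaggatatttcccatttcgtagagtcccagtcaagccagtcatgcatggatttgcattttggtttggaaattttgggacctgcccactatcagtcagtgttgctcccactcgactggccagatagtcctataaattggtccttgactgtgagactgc
Sprr2k: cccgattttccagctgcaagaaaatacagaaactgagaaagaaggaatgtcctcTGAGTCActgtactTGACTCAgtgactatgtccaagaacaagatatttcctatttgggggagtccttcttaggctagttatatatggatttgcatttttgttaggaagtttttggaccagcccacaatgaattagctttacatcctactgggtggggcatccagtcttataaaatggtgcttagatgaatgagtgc
Sprr1a: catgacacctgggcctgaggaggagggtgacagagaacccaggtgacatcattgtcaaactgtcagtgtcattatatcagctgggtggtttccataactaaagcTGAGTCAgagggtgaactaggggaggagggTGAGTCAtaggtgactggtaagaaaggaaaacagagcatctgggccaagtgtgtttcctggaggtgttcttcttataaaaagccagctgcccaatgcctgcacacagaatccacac
The promoters of Sprr2d and Sprr2e matched at 88.5% of aligned positions, and that of Sprr2k matched them at 66.3% and 65.3%. The AP-1 motif, searched on both strands of the 250 bases and the 50 bases after the start, was found in 7 of 8 member promoters and 9 of all 14 Sprr promoters, against 7.81% of 32851 promoters of the same length. Sprr2d and Sprr2e hold it once, 193 bases before the start, Sprr2k 196 and 182 bases before and Sprr1a 146 and 116 bases before. Sprr3 has no match. TATAAA on the gene strand was found in 8 of 8 member promoters and 10 of 14, against 8.32% of all promoters. The ETS motif AGGAAG was found in 3 of 8 member promoters and 7 of 14 (35.4% of all) and the antioxidant-response motif TGACNNNGC in 2 of 8 and 2 of 14 (12.4%). The STAT motif TTCNNNGAA (8.30%), the kappa-B motif (1.47%) and the interferon-response motif (3.44%) had 0 matches in the 8 member windows, which says only that these letters are not there. Over the 14 Sprr promoters the STAT motif was found in 2, those of Sprr2a3 and Sprr2i. Some motifs can overlap one another. Many Sprr promoters are related in sequence, so their matches are not independent and no enrichment is read from these shares. Every Sprr2 promoter with an AP-1 match held TGAGTCA 193 to 198 bases before the start. AP-1 matches stood before genes that were higher and genes that were lower in LPS.

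Of the 24 tested transcription factors named for Sprr promoters 13 rose and 1 fell. Over all tested genes 9.09% were called higher and 6.71% lower. The median log2 fold change of the list was 0.49. Among the 13 were factors of the NF-kB and C/EBP families: Nfkbiz (log2 fold change 2.52), Cebpd (2.31), Nfkb1 (1.86), Cebpb (1.3) and Rela (0.44). The count is thus not read as a rise of factors particular to Sprr promoters. The AP-1 members differed among themselves. Batf rose by 3.44 ± 0.42 on the log2 scale (adjusted p = 0.00647, edgeR), Fosl1 by 1.72 ± 0.40 (adjusted p = 0.0389), Junb by 1.31 ± 0.08 (adjusted p = 0.000634) and Fosl2 by 0.55 ± 0.14 (adjusted p = 0.0472), and Atf3 fell by 0.76 ± 0.07 (adjusted p = 0.00259). Jun was at 164.8 ± 15.5 and 168.4 ± 4.04 CPM (adjusted p = 0.846) and Fos at 43.4 ± 1.87 and 32.1 ± 10.4 CPM (adjusted p = 0.240). Ehf, an ETS factor of epithelia, rose from 0.211 ± 0.105 to 0.818 ± 0.181 CPM (adjusted p = 0.0342). The number called higher was 6 on leaving out control 1, control 2 or LPS 2, and 8 on leaving out LPS 1.

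Sprr genes are known to respond to gp130 cytokines in heart muscle and to IL-13 in airway epithelium. Of 15 ligands and receptors of the gp130, IL-4/IL-13 and IL-33 pathways 6 rose and 1 fell. Over all tested genes 9.09% were called higher and 6.71% lower. The median log2 fold change of the list was 0.79. It was 0.35 without LPS 3, 0.48 without control 1 and 1.23 without control 3. Among the ligands Il6 rose by 5.12 ± 0.31 on the log2 scale (adjusted p = 0.000656, edgeR), Lif by 2.51 ± 0.32 (adjusted p = 0.00734) and Clcf1 by 1.28 ± 0.13 (adjusted p = 0.00341). Among the receptors Osmr, for oncostatin M, rose by 1.11 ± 0.15 (adjusted p = 0.00828), Il13ra1 by 1.93 ± 0.27 (adjusted p = 0.0093) and Il1rl1, the IL-33 receptor, by 2.55 ± 0.23 (adjusted p = 0.00255), and Il11ra1 fell by 0.39 ± 0.10 (adjusted p = 0.0447). Il6st, gp130 itself, had a mean level of 346.5 ± 20.3 CPM without and 420.3 ± 123.4 CPM with LPS (adjusted p = 0.458). On leaving out control 2 the number called higher was 3, and the call of Il11ra1 was lost on leaving out control 1, control 2 or any LPS library.

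Sprr1a is known among the genes that rise after nerve injury. Of 22 others tested 3 rose and 2 fell, beside 9.09% of all tested genes called higher and 6.71% called lower. These counts are not read as a result about the list. The median log2 fold change was 0.13. It lay between 0.03 and 0.20 when 1 library was left out, lowest without control 3 or LPS 2. Socs3, an inhibitor of cytokine signalling, rose by 2.45 ± 0.18 on the log2 scale (adjusted p = 0.00136, edgeR), Klf6 by 0.56 ± 0.08 (adjusted p = 0.0111) and Smad1 by 0.47 ± 0.09 (adjusted p = 0.0276). Atf3, the transcription factor of injured neurons, fell like Sprr1a, and Olig1 fell by 1.89 ± 0.47 (adjusted p = 0.0477). Gap43, a growth cone protein, was at 169.9 ± 26.5 and 122.5 ± 17.1 CPM (adjusted p = 0.0961), Sox11 at 12.7 ± 3.65 and 18.8 ± 7.72 CPM (adjusted p = 0.376), and Ngfr, the low-affinity neurotrophin receptor, at 423.6 ± 55.0 and 361.1 ± 11.5 CPM (adjusted p = 0.227). With the replicate block 9 of the list were called higher and 5 lower, and on leaving out control 1, control 2 or LPS 2 the number called higher was 1. The number called lower, 2 with all libraries, went down to 1 over the fits with fewer libraries.

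Patterns most like each tested member were taken as the genes outside the family with the highest Pearson r of log2 CPM over the 6 libraries. With 6 points in 2 groups, high values arise for many genes, and they are given as a description. For Sprr2e the first was Cd40, a co-stimulatory receptor, with r = 0.9997 (2.63, 2.79 and 2.56 CPM in control and 32.9, 41.5 and 17.7 CPM in LPS libraries), then Zswim4 and Atg9a, and 118 genes were above 0.99. For Sprr2d these were Prelid2, the glycolytic enzyme gene Gpi1 and Cfap69, with 70 genes above 0.99. For Sprr2g they were Lsm12, Kifc3 and Unc50, with 6 genes above 0.99. For Sprr1a they were Timp2, an inhibitor of matrix metalloproteinases, Setd7 and Aes, for Sprr2k Ogdhl, Cltb and Dlg5, and for Sprr3 the long non-coding RNA Ftx, the kinase gene Rock2 and Rbms3. Within the family Sprr1a and Sprr2k had r = 0.97, Sprr2k and Sprr3 0.95, and Sprr2d and Sprr2e 0.98.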

How the data were processed

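Poly(A) RNA of 6 cultures was sequenced from stranded libraries. Per the labels the authors trimmed reads with cutadapt 1.15, removed contaminants with Bowtie2 2.3.3.1, aligned with STAR 2.5.2b to GRCm38, used SAMtools 1.5 and counted with featureCounts 1.5.3. The deposited values are raw counts per gene. The strand and multi-mapping settings of the counting are not given in the sources used here, and a table of the whole series with the same columns was not used.

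The counts were filtered with filterByExpr (minimum count 10, minimum total 15), scaled by TMM and tested with the quasi-likelihood test of edgeR 4.0.16 in R 4.3.3, two-sided, with Benjamini-Hochberg adjustment over 15226 genes and a threshold of 0.05. The filter kept 6 of the 9 members. The members, gene lists and motifs were chosen with earlier results of these data known. All 9 members and every other Sprr gene are named, and for each tested member the 3 genes most like it. From each list at most 8 genes (defining, called or highest) are named, with further called genes for the transcription factors. Alternatives used DESeq2 1.42.0, limma 3.58.1, other scalings and filters and fewer libraries. No libraries were identical. Deviations of libraries with the same replicate number correlated at 0.513, 0.334 and 0.613. The numbers were taken to pair the cultures, which the labels do not state. Control replicate 1 also correlated at 0.419 with LPS replicate 2, so replicates 1 and 2 were not told apart. Sequences were aligned with Biopython 1.88. Amino acid sequences are not analysed here.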

Additional observations from a re-analysis of the deposited data

How the results depend on the processing

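The number of genes called higher was 1384 and of genes called lower 1022. With DESeq2 they were 2079 and 1673, and with upper-quartile factors and library size alone 1589 and 2054 genes were called lower. Upper-quartile factors and library size alone shifted the median over all genes from -0.02 to -0.12 and -0.18 on the log2 scale. Leaving out 1 library gave 379 to 1964 genes called higher and 112 to 1426 lower, and leaving out replicate 3 of both groups, a choice made after seeing the data, gave 3498 and 3159. Of the Sprr members 3 were called higher and 3 lower. With limma-voom these were 1 and 1, beside 1250 and 921 of all genes, and with at least 10 counts in every library, where fewer Sprr genes were tested, 0 and 1, beside 1204 and 968. Leaving out 1 library gave 0 to 2 higher and 0 to 3 lower. The log2 fold change of Sprr2b, 2.57 and not called, was called with DESeq2 (2.59) and the exact test (2.56), was 1.99 to 3.04 when 1 library was left out and 2.69, called, without replicate 3 of both groups, with adjusted p between 0.00016 and 0.231 over all alternatives. The replicate block assumes a pairing by number that the labels do not state. With it 2343 genes were called higher and 2273 lower, and Sprr2b was called at 2.39. The block changed no other call among the Sprr genes. No Sprr fold change turned its direction under any alternative that was run. The cause of these shifts was not tested. Depth limits Sprr1b, Sprr2f, Sprr2g and Sprr2h, which had few counts.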
